A study of Mus musculus with 4 samples.

Results

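The antibody genes of the small intestine (SI) were compared between WT (p53+/+) and p53-/- animals 1 day after total-body irradiation (TBI) with 12 Gy. The 10 genes were taken from the deposited count table of 56748 genes by their exact names. They are the heavy chain constant genes Igha, Ighm, Ighg2b and Ighg2c, the joining chain gene Jchain, the antibody transporter gene Pigr, and the plasma cell genes Mzb1, Sdc1, Xbp1 and Prdm1. Each name matched 1 row of the table, and all 10 genes had enough counts to be tested.

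RNA from whole SI tissue was sequenced after poly-A selection, with 2 libraries for each genotype. All mice were irradiated with a Cs-137 source, so no unirradiated group stands beside them and each value is a level after irradiation. Per the study's methods the WT and p53-/- mice came from the Jackson Laboratory and were age- and sex-matched, at an age of 8 to 12 weeks. The p53-/- mice lack p53 in every cell of the body, and the tissue was not sorted, so cells of the epithelium and of the immune system were read together. Which segment of the SI was taken, and whether it held lymphoid follicles, is not given in the sources used here. Libraries 7 and 8 are WT and libraries 9 and 10 are p53-/-, by the numbers in their names.

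Antibodies of the gut are made by plasma cells, which lie in the tissue under the epithelium and descend from B cells. Most of them secrete IgA, in which the small J chain protein links antibody units into a polymer. The polymeric immunoglobulin receptor, encoded by Pigr, is carried by epithelial cells. It binds polymeric IgA or IgM on the tissue side, takes it across the cell and releases it into the gut lumen, where it coats microbes. Plasma cells need the transcription factors BLIMP1 (Prdm1) and XBP1 for antibody secretion, and MZB1 helps to assemble secreted antibody.

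The end of the heavy chain decides which antibody classes J chain can join, so the last bases of the secreted forms of the 4 heavy chain genes are shown. They were read from the GENCODE M21 transcripts on GRCm38 (minus strand of chromosome 12), 5′ to 3′, each ending in the stop codon, with the cysteine codons in capitals. The stretches are chr12:113258768-113258830 for Igha, chr12:113420867-113420929 for Ighm, chr12:113306389-113306451 for Ighg2b and chr12:113287389-113287451 for Ighg2c, all coding sequence of the last exon of the secreted form.
Igha: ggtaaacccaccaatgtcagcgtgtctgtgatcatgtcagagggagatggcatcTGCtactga
Ighm: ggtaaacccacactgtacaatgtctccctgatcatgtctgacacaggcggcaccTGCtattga
Ighg2b: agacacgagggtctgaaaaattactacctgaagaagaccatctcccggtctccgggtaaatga
Ighg2c: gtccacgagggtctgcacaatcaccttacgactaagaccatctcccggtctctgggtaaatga

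The letters ggtaaa stand at the start of the Igha and Ighm stretches and directly before the stop codon of Ighg2b and Ighg2c. After them Igha and Ighm go on for 18 codons, the tailpiece, whose cysteine is the last residue but 1 and is the known attachment site of J chain. Over the 63 bases shown, Igha and Ighm had 44 identical positions, whereas Igha shared 15 with Ighg2b and 16 with Ighg2c. Ighg2b and Ighg2c shared 49, and their coding sequences were 86.0% identical over their length, so the counting could have split reads between these 2 genes and their values are uncertain to that extent. The counts sum all forms of a gene and do not separate the secreted heavy chain from the membrane form of the B cell receptor.

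The libraries held 15005479 to 22173164 counts. Trp53 was at 57.7 and 47.1 CPM (counts relative to the scaled total of a library) in WT and at 19.8 and 22.5 CPM in p53-/- SI, with an edgeR adjusted p of 0.0602. The small intestinal enterocyte genes Fabp2 (1556 to 3161 CPM), Sis (1270 to 1410 CPM) and Alpi (252 to 657 CPM) were present in all 4 libraries and the colon genes Car1 and Aqp8 had at most 13 counts, whereas Lct, the lactase gene of the SI, was at most at 0.99 CPM. Library 10 stood apart from library 9. Its B cell markers summed to 805 CPM, against 11.9 and 13.3 CPM in the WT libraries and 44.4 CPM in library 9. The ribosomal RNA gene Rn18s-rs5 took 4.59% of its counts and 0.296% to 0.863% of those of the others. The WT libraries also differed from each other, and results that rest on a library are given with and without it.

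The genotypes were compared to ask how much antibody, plasma cell and transporter RNA the SI held with and without p53 at 1 day post-TBI. Igha and Jchain were several times higher in both p53-/- libraries than in either WT library, Pigr was at least 2.50-fold higher in each p53-/- library than in each WT library, and Sdc1 was the single gene of the 10 that was lower in both p53-/- libraries. By the quasi-likelihood test of edgeR, with p-values adjusted by Benjamini-Hochberg over all 16094 genes tested, 0 of the 10 genes passed the threshold of 0.05 as higher and 0 as lower, beside 0.298% of all tested genes called higher and 0.193% called lower. The adjusted p of the 10 genes lay between 0.104 and 0.279. At an unadjusted p under 0.05, 8 were higher and 1 was lower, where 10% and 7.92% of all tested genes were. DESeq2 called 9 higher and 1 lower, beside 5.15% and 4.18% of the genes to which it gave an adjusted p. The genotypes did not overlap for 9 of the 10 genes, 8 higher and 1 lower in p53-/- SI, beside 26.4% and 24.4% of all tested genes. The median log2 fold change of the 10 genes was 3.41, whereas that of all tested genes was -0.0084. The 10 genes were chosen with earlier results of these data known. With at least 10 counts in every library, which leaves out Ighg2b, Ighg2c and Mzb1, their median was 1.68, and without library 10 it was 1.55. With 2 libraries against 2, an exact permutation test of a single gene cannot go below a two-sided p of 0.333, so none is given.

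**Figure D1:**
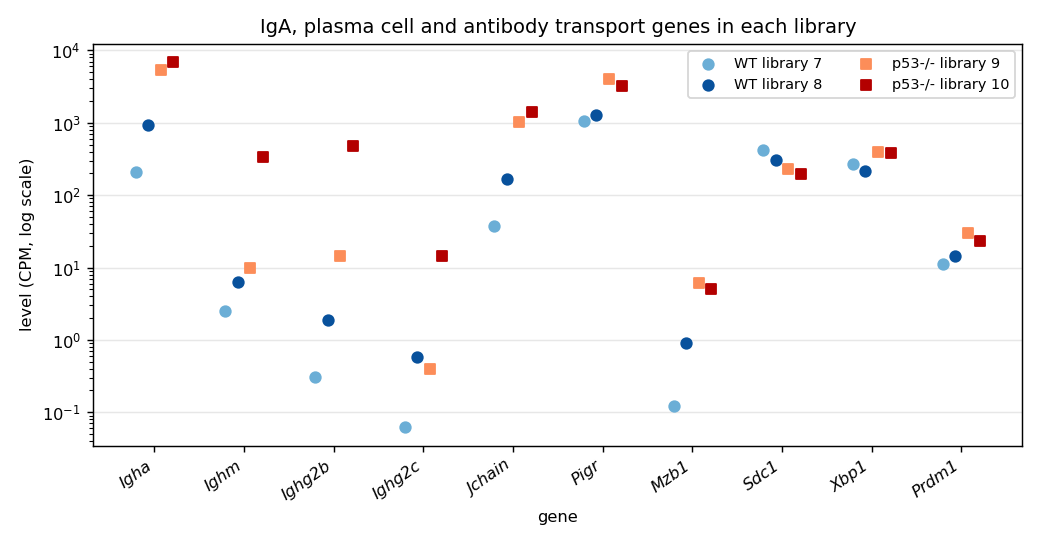
Level of each of the 10 genes (CPM, log scale) in the 2 WT libraries (circles) and the 2 p53-/- libraries (squares), 1 point a library. For Igha, Jchain and Pigr both squares lie above both circles, for Sdc1 below them, and for Ighm, Ighg2b and Ighg2c library 10 lies far above library 9.

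Igha, which encodes the heavy chain of IgA, was at 212 CPM in library 7 and 928 CPM in library 8, and at 5298 CPM in library 9 and 6868 CPM in library 10. The lower p53-/- library was 5.71-fold above the higher WT library. This was a log2 fold change of 3.42 (standard error 0.77, edgeR adjusted p = 0.124). By its counts Igha ranked 1004 and 108 in WT and 8 and 7 in p53-/- SI. The WT libraries differed 4.39-fold from each other, more than the 1.30-fold between the p53-/- libraries, and the log2 fold change was 2.72 without library 7 and 4.84 without library 8. In a bulk sample, fewer cells of a type and less RNA per cell cannot be told apart, which holds for every gene described here.

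Jchain followed Igha closely. It was at 37.0 and 169 CPM in WT SI and at 1036 and 1426 CPM in p53-/- SI. The same WT library was the lower of its pair for both genes, and the groups did not overlap. The log2 fold change of Jchain was 3.58 (standard error 0.75, edgeR adjusted p = 0.112), and 3.36 without library 10. For each count of Jchain there were 5.72 and 5.49 counts of Igha in WT and 5.11 and 4.82 in p53-/- SI. The ratio thus stayed between 4.82 and 5.72 while Igha itself spanned 212 to 6868 CPM.

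Ighm, the heavy chain gene of IgM and of the receptor of naive B cells, was at 2.48 and 6.29 CPM in WT and at 9.95 and 340 CPM in p53-/- SI. Library 10 was 34.2-fold above library 9, and library 9 was 1.58-fold above the higher WT library. Its log2 fold change was 5.32 (standard error 1.66, edgeR adjusted p = 0.198) with all libraries and 1.22 without library 10.

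Ighg2b, a heavy chain gene of the IgG class, was at 0.309 and 1.88 CPM in WT and at 14.6 and 477 CPM in p53-/- SI. Both p53-/- libraries were above both WT libraries, but library 10 was 32.8-fold above library 9. The log2 fold change was 7.82 (standard error 1.95, edgeR adjusted p = 0.145), and 3.76 without library 10. Ighg2c, the other IgG gene, had 1 and 9 counts in WT and 9 and 294 counts in p53-/- SI, or 0.0619, 0.584, 0.395 and 14.6 CPM. Here library 9 lay between the WT libraries, so the genotypes overlapped. Its log2 fold change of 4.52 (standard error 1.81, edgeR adjusted p = 0.279) came to 0.33 without library 10.

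The classes thus differed in how far the 2 p53-/- libraries were from each other. Library 10 exceeded library 9 by 32.8-fold to 37.1-fold for Ighm, Ighg2b and Ighg2c, by 1.30-fold for Igha and by 1.38-fold for Jchain. The B cell markers, at 44.4 CPM in library 9 and 805 CPM in library 10, and Rn18s-rs5 moved with the first 3 genes, and their part in the result was not tested.

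Igha made up nearly all heavy chain constant counts in every library but library 10. Its share of the counts of Igha, Ighm, Ighd, Ighg1, Ighg2b, Ighg2c, Ighg3 and Ighe was 98.59% (exact Clopper-Pearson 95% interval 98.1 to 99.0) and 98.98% (98.8 to 99.1) in the WT libraries. It was 99.46% (99.4 to 99.5) in library 9 and 87.5% (87.3 to 87.6) in library 10. In library 10 the remainder was mainly Ighg2b, with a share of 6.08% (5.96 to 6.20), and Ighm, with 4.33% (4.23 to 4.43). The share of Ighm was 1.15% and 0.671% in the WT libraries and 0.187% in library 9, so library 9 had more IgM heavy chain RNA than WT in CPM and less of it as a share. These intervals cover counting error only.

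**Figure D2:**
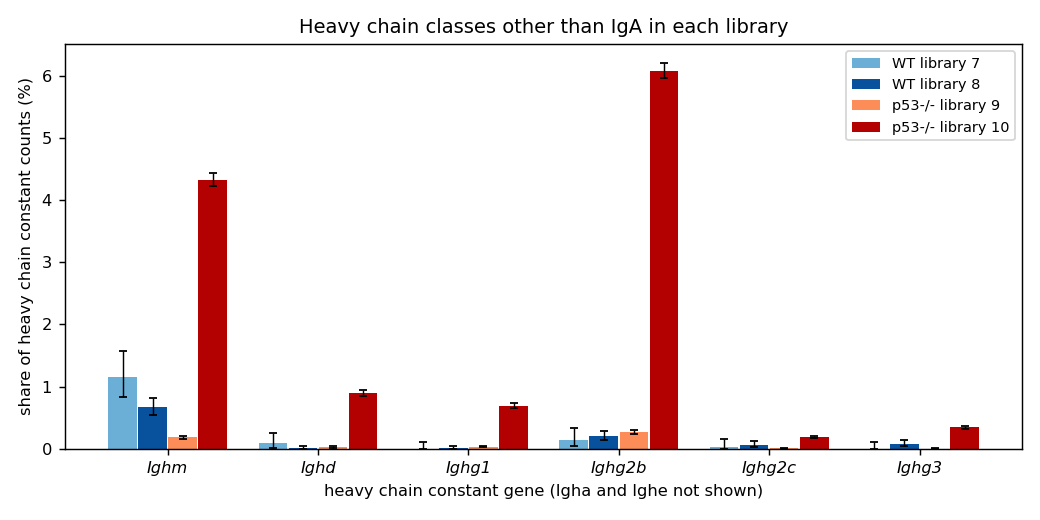
Share of heavy chain constant counts (%) of 6 classes other than IgA in each library, where bars are shares and error bars exact 95% Clopper-Pearson intervals of counting error. Library 10 holds 6.08% Ighg2b and 4.33% Ighm, and no bar of the other 3 libraries exceeds 1.15%.

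Among the 8 other immunoglobulin constant genes, 7 were tested and 0 passed the threshold. At an unadjusted p under 0.05, 6 were higher and 0 lower, beside 10% and 7.92% of all tested genes. Igkc, the kappa light chain gene, was at 99.4 and 438 CPM in WT and at 2352 and 4412 CPM in p53-/- SI (log2 fold change 3.65, standard error 0.81, edgeR adjusted p = 0.121). There were 0.47 and 0.472 counts of Igkc for each count of Igha in WT, 0.444 in library 9 and 0.642 in library 10. Iglc1, a lambda light chain gene, was at 6.0 and 21.3 CPM in WT and at 339 and 380 CPM in p53-/- SI (log2 fold change 4.72, standard error 0.63, edgeR adjusted p = 0.0569). Its share of light chain constant counts was 5.66% and 4.61% in WT and 12.5% and 7.85% in p53-/- SI. Ighd, co-expressed with Ighm in naive B cells, had 3 and 1 counts in WT and 35 and 1415 in p53-/- SI. Ighg1 had 0 and 1 counts in WT and 43 and 1094 in p53-/- SI, and Ighg3 had 0 and 11 counts in WT and 4 and 541 in p53-/- SI. Library 10 was thus the higher of the p53-/- pair for all 3 of these classes.

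Pigr, the epithelial transporter gene, was at 1059 and 1281 CPM in WT SI and at 3969 and 3204 CPM in p53-/- SI. The lower p53-/- library was 2.50-fold above the higher WT library, WT library 8 was 1.21-fold above library 7, and library 10 was 0.807 times library 9. The difference was a log2 fold change of 1.62 (standard error 0.31, edgeR adjusted p = 0.104), and it lay between 1.45 and 1.81 when any 1 library was left out. Pigr ranked 108 and 78 by counts in WT and 13 and 20 in p53-/- SI. Library 10, in which Ighm and Ighg2b were so much higher, was here the lower of the p53-/- pair.

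The 13 epithelial markers, the compartment in which Pigr is expressed, were on the other side of 0. All 13 had a log2 fold change below 0, with a median of -0.47, and 0 were called. At an unadjusted p under 0.05, 2 were lower, beside 7.92% of all tested genes. The summed level of the 13 was 31692 and 22883 CPM in WT and 21073 and 17958 CPM in p53-/- SI. The 3 furthest from 0 were Cdx2, an intestinal transcription factor (log2 fold change -1.0), the keratin gene Krt19 (-0.69) and the tight junction gene Cldn3 (-0.61). Krt8 (-0.48) and Epcam (-0.58) were the most abundant. Per 1000 counts of these genes there were 33.4 and 56.0 counts of Pigr in WT and 188 and 178 in p53-/- SI, a 4.10-fold difference of the means. Against Epcam alone the difference was 4.38-fold.

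**Figure D3:**
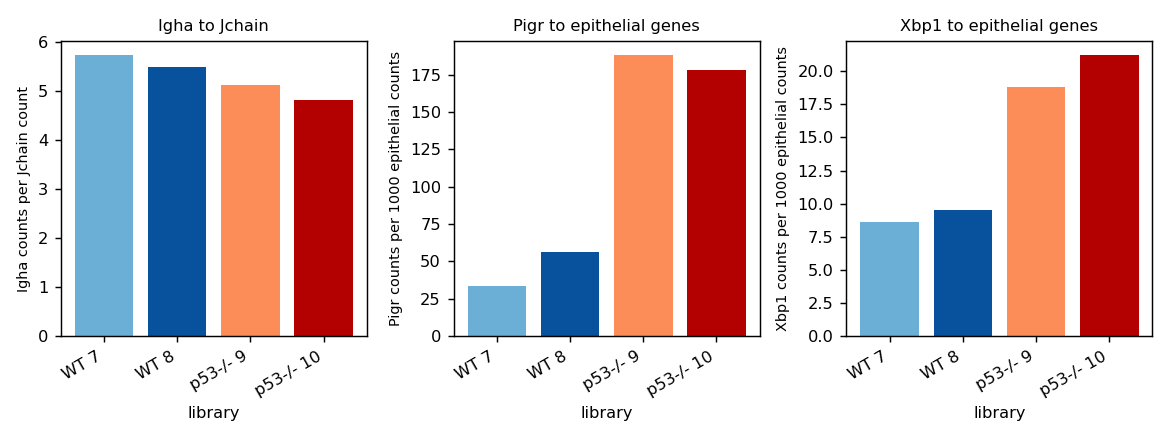
Counts of Igha per count of Jchain (left), of Pigr per 1000 counts of the 13 epithelial genes (middle) and of Xbp1 per 1000 of the same counts (right), 1 bar a library. The first ratio lies between 4.82 and 5.72 in all 4 libraries, whereas the Pigr ratio is 33.4 and 56.0 in WT and 188 and 178 in p53-/- SI.

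Promoters of Jchain and Pigr, whose proteins build polymeric IgA and carry it out of the tissue, are shown because both genes were higher in both p53-/- libraries. They are the 250 bases before the annotated start, 5′ to 3′ on the strand of the gene, from RefSeq on GRCm38.p6, at chr1:130826434-130826683 (plus strand) for Pigr and chr5:88527898-88528147 (minus strand) for Jchain. Capitals mark CACGTG, the E-box bound by USF factors.
Pigr: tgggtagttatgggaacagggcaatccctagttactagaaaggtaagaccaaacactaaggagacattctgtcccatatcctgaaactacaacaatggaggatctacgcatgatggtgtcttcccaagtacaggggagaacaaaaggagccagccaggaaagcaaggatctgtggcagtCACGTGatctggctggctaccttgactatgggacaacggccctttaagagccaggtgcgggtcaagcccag
Jchain: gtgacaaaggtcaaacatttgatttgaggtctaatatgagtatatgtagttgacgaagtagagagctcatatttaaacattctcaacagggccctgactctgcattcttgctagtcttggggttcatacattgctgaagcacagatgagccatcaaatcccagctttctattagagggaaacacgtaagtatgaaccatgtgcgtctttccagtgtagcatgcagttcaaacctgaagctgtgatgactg

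RefSeq promoter windows were given for 5 of the 10 genes, Pigr, Jchain, Prdm1, Xbp1 and Sdc1, and were searched on both strands. The octamer ATTTGCAT of immunoglobulin promoters was in 0 of the 5 and in 1.74% of all 32851 windows. The unfolded protein response core TGACGTGG was in 0 of the 5 and in 0.676% of all windows, and 1 decamer of the p53 response element in 0 of the 5 and in 8.36%. The interferon regulatory factor core GAAANNGA was in that of Xbp1 and in 21.0% of all windows. The E-box was searched after the Pigr sequence had been seen, and was in that of Pigr and in 7.15% of all windows. These matches describe letters in a window and are not measured binding.

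Mzb1, the antibody assembly factor of plasma cells, had 2 and 14 counts in WT and 138 and 100 counts in p53-/- SI, or 0.124, 0.908, 6.05 and 4.97 CPM. Both p53-/- libraries lay above both WT libraries, and library 10 was 0.822 times library 9. For Mzb1 the log2 fold change was 3.41 (standard error 0.87, edgeR adjusted p = 0.148), and 3.57 without library 10. There were 1709 and 1022 counts of Igha per count of Mzb1 in WT and 876 and 1381 in p53-/- SI, ranges that overlap.

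Prdm1, which encodes BLIMP1 and is also expressed in other cells of the SI, was at 11.1 and 14.5 CPM in WT and at 30.4 and 23.5 CPM in p53-/- SI. The genotypes did not overlap. Prdm1 had a log2 fold change of 1.07 (standard error 0.26, edgeR adjusted p = 0.14), and it lay between 0.87 and 1.29 when any 1 library was left out.

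Xbp1, a transcription factor of secretory cells that acts in plasma cells and in the secretory epithelium, was at 274 and 218 CPM in WT and at 396 and 381 CPM in p53-/- SI. The lower p53-/- library was 1.39-fold above the higher WT library. The log2 fold change was 0.66 (standard error 0.21, edgeR adjusted p = 0.202). Per 1000 epithelial counts there were 8.64 and 9.54 counts of Xbp1 in WT and 18.8 and 21.2 in p53-/- SI. The counts sum the spliced, active form and the unspliced form of this RNA.

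Sdc1, which encodes syndecan 1 (CD138), is a surface marker of plasma cells and is also made by epithelial cells. It was at 414 and 308 CPM in WT and at 229 and 199 CPM in p53-/- SI, the reverse of the order seen for Igha, Jchain and Mzb1. The log2 fold change was -0.76 (standard error 0.23, edgeR adjusted p = 0.191). The epithelial markers moved with it. Per 1000 epithelial counts there were 13.1 and 13.5 counts of Sdc1 in WT and 10.9 and 11.1 in p53-/- SI, 0.827 times as many by the means, and the part of the epithelial markers in the result was not tested.

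Levels of different genes can be set beside each other only per length, here as CPM per kilobase of the exons of the gene in GENCODE M21. This length joins the exons of all annotated forms of a gene. For Igha it is 2668 bases, whereas the coding sequence of its secreted form has 1031. The order given here holds for the joined length, and another choice of length could change it. On that scale Pigr led in WT, with a mean of 290.6 CPM per kilobase, followed by Igha with 213.6, Sdc1 with 94.9, Xbp1 with 75.8 and Jchain with 40.9. The other 5 genes had means under 3 CPM per kilobase. The place of Igha in WT depended on the library, with 79.3 CPM per kilobase in library 7 and 348 in library 8, below and above the 263 and 318 of Pigr. In p53-/- SI Igha led with a mean of 2280, followed by Pigr with 891, Jchain with 489 and Xbp1 with 120. The order of those 4 was the same in libraries 9 and 10, but in library 10 Ighm (180) and Ighg2b (178) stood above Xbp1.

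The genes whose profile over the 4 libraries lay nearest to that of Igha were Jchain, the pseudogene Gm12250 and Lcn2, at distances of 0.188, 0.204 and 0.253 in log2 CPM centred on the mean of each gene. Lcn2 encodes lipocalin 2, an antimicrobial protein that binds bacterial siderophores, and was at 0.866 and 3.31 CPM in WT and at 21.6 and 25.8 CPM in p53-/- SI. Nearest to Jchain were Igha, Gm12250 and Igkc. Nearest to Pigr were Ccdc88b, Gm14137 and Gm41609, at distances of 0.154, 0.178 and 0.216. With 4 libraries such likeness is a description.

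Of the 20 gene names listed for plasma cell identity and survival, 19 matched the count table and 18 were tested. The threshold was passed by 2 as higher and 0 as lower, beside 0.298% and 0.193% of all tested genes. At an unadjusted p under 0.05, 13 were higher and 1 lower, beside 10% and 7.92% of all tested genes. The median log2 fold change of the 18 was 2.19, and 2.12 without library 10. Derl3, a factor that removes misfolded proteins from the endoplasmic reticulum (ER), rose from 1.48 and 1.62 CPM to 13.8 and 14.8 CPM (log2 fold change 3.19, standard error 0.34, edgeR adjusted p = 0.0424). Tent5c, which encodes a poly-A polymerase that stabilizes immunoglobulin RNA, rose from 15.0 and 17.4 CPM to 49.9 and 52.0 CPM (log2 fold change 1.66, standard error 0.18, edgeR adjusted p = 0.0432). For both genes the libraries of a genotype were close to each other. Igha, Jchain and Mzb1, by contrast, were 4.4-fold, 4.6-fold and 7.3-fold higher in WT library 8 than in WT library 7. Derl3 and Tent5c thus did not follow them within the WT pair. Both calls were lost with library size only and with upper-quartile scaling. Those fits called 26 and 29 of all 16094 genes higher, beside 48 in the main fit.

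XBP1 targets and the ER secretory machinery lay slightly above 0, with 35 of 37 log2 fold changes above 0 and a median of 0.44. None of the 37 passed edgeR's adjusted threshold. An unadjusted p under 0.05 was reached by 14 as higher and 1 as lower, beside 10% and 7.92% of all tested genes. Creld2 (log2 fold change 1.10), the peroxiredoxin gene Prdx4 (0.96) and the chaperone gene Hyou1 (0.92) were the furthest from 0. The most abundant were the chaperone genes Calr (0.20) and Hspa5 (0.54). Hspa5, the main chaperone of the ER, was at 722 and 597 CPM in WT and at 1047 and 864 CPM in p53-/- SI.

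Among 26 genes of IgA induction and plasma cell homing, 19 were tested and 0 passed the threshold. At an unadjusted p under 0.05, 14 were higher, beside 10% of all tested genes. The median log2 fold change of the 19 was 2.02, and 1.81 without library 10. Tnfrsf13c, the BAFF receptor gene of B cells, had 0 and 1 counts in WT and 35 and 614 in p53-/- SI. Cxcr4 (log2 fold change 4.86) and Ltb (4.03) were the next furthest from 0, and library 10 was the higher of the p53-/- pair for all 3 genes. Nos2, the inducible nitric oxide synthase gene, was at 171 and 189 CPM in WT and at 609 and 372 CPM in p53-/- SI (log2 fold change 1.45, standard error 0.29, edgeR adjusted p = 0.106). Ccl25, an epithelial chemokine of the SI, was at 456 and 394 CPM in WT and at 285 and 335 CPM in p53-/- SI (log2 fold change -0.46).

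Chemokine and receptor pairs that guide IgA plasma cells to mucosa were picked out of that list after their values had been seen. Ccl28, an epithelial chemokine, was at 25.2 and 21.6 CPM in WT and at 117 and 72.6 CPM in p53-/- SI (log2 fold change 2.02, standard error 0.27, edgeR adjusted p = 0.0569). Its receptor gene Ccr10 was at 0.309 and 0.908 CPM in WT and at 5.70 and 7.01 CPM in p53-/- SI, and Ccr9, the receptor gene for Ccl25, at 0.743 and 1.17 CPM and at 7.58 and 6.32 CPM. Both receptor genes were therefore apart between the genotypes and close within the p53-/- pair. Cxcr4 was also apart between the genotypes, but its p53-/- libraries were far from each other (2.45 and 31.4 CPM).

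The 27 genes of antibody receptors and transcytosis, to which Pigr is functionally related, were spread around 0. Of 26 tested, 0 were called. An unadjusted p under 0.05 was reached by 7 as higher and 3 as lower, beside 10% and 7.92% of all tested genes. The median log2 fold change of the 26 was 0.14. The 3 with the largest fitted values are receptor or receptor-like genes of B cells. Fcmr and Fcer2a had 0 counts in both WT libraries, 24 and 18 counts in library 9 and 854 and 685 in library 10, and Fcrla had 2 and 0 counts in WT and 52 and 601 in p53-/- SI. The apical transport genes were the most abundant. Myo5b, a motor of recycling endosomes, was at 609 and 449 CPM in WT and at 328 and 285 CPM in p53-/- SI (log2 fold change -0.79, edgeR adjusted p = 0.194), and Mal2 had a log2 fold change of 0.24. Pigr was thus higher in p53-/- libraries in which these transport genes were not all higher.

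Of 24 genes reported to induce Pigr, among them cytokines, their receptors and transcription factors, 21 were tested, 0 were called, and 6 were higher and 2 lower at an unadjusted p under 0.05. Beside these, 10% of all tested genes were higher and 7.92% lower at that p. The median log2 fold change of the 21 was -0.037. Il17a was listed at 0 counts in both WT libraries and had 17 and 16 counts in p53-/- SI. With 3 counts set for each WT library it was at least 4.05-fold higher, for counting error only. Tnf was at 2.54 and 1.62 CPM in WT and at 7.80 and 13.2 CPM in p53-/- SI (log2 fold change 2.33, standard error 0.47, edgeR adjusted p = 0.106), and Il1b had a log2 fold change of 1.86. The interferon gamma receptor genes Ifngr1 (-0.66) and Ifngr2 (-0.52) were the most abundant and lay below 0.

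**Figure D4:**
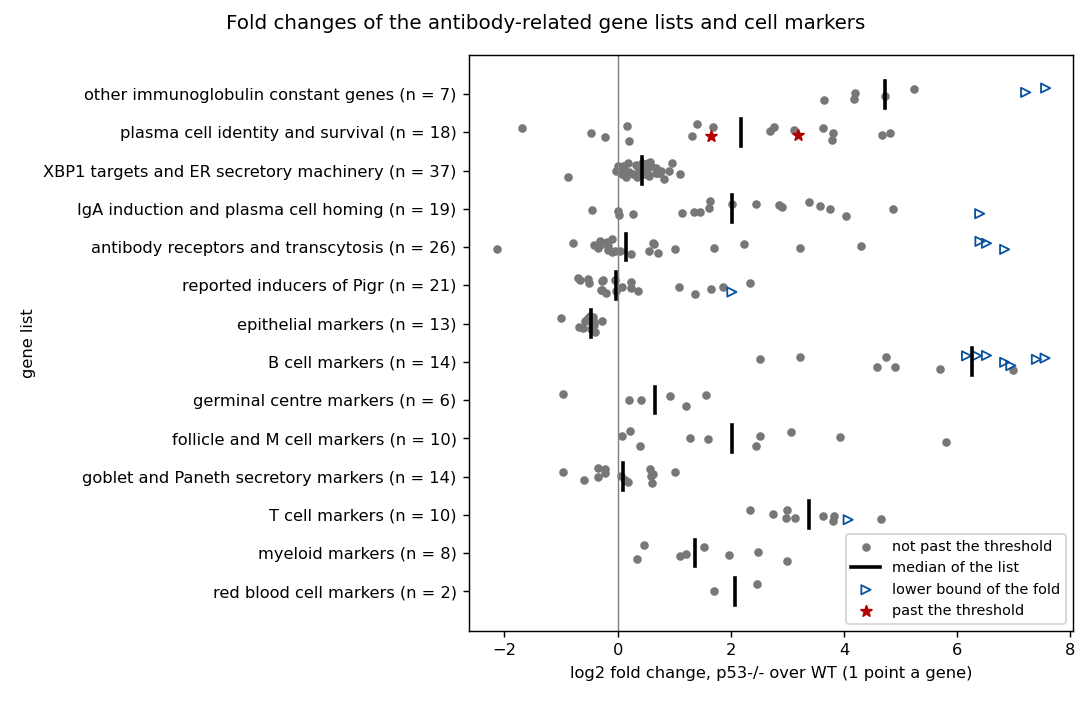
Log2 fold change of p53-/- over WT (x axis) for each tested gene of 14 lists (y axis), with the list medians as bars, lower bounds as open triangles for genes at or under 3 counts in both WT libraries, and the 2 genes past the threshold as stars. The medians of the plasma cell, T cell and B cell lists lie to the right of 0, with 15 of the 18 plasma cell genes above 0, all 13 epithelial genes lie to the left, and the transcytosis list spreads around 0.

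Markers of other cell types were measured beside these genes. Of 15 B cell markers 14 were tested, 0 passed edgeR's threshold and 14 were higher at an unadjusted p under 0.05. Beside this list and the marker lists below, 10% of all tested genes were higher and 7.92% lower at that p. Pax5 and Fcmr were at 0 counts in both WT libraries. Pax5, the B cell transcription factor, had 34 counts in library 9 and 914 in library 10. With 3 counts set for each WT library, Pax5 was at least 123-fold higher in the mean of the p53-/- libraries, a mean that library 10 sets. Cd79a was at 0.186 and 0.908 CPM in WT and at 11.3 and 127 CPM in p53-/- SI, and Spib at 7.74, 7.07, 7.98 and 76.8 CPM in libraries 7, 8, 9 and 10. The median log2 fold change of the tested B cell markers was 6.26 with genes at or under 3 counts in WT at their bounds. Without library 10 the fitted median went from 7.12 to 3.56.

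Follicle and M cell markers (10 tested, 0 called, 5 higher at an unadjusted p under 0.05) summed to 256, 298, 320 and 1253 CPM in libraries 7, 8, 9 and 10. Cxcl13, the chemokine of B cell follicles, was at 0.681 and 0.714 CPM in WT and at 1.97 and 76.8 CPM in p53-/- SI, with Ccl20 (log2 fold change 3.92) and Clu (3.06) next, and Mfge8 (2.45) and Marcksl1 (0.078) most abundant. The list's median log2 fold change was 2.02, and 0.30 without library 10. Germinal centre markers (6 tested, 0 called, 2 higher and 1 lower at an unadjusted p under 0.05) had a median of 0.66, led by the proliferation gene Mki67 (1.55), S1pr2 (1.21) and Gcnt3 (-0.96). Follicle genes were thus higher mainly in library 10, as Ighm, Ighg2b and Ighg2c were, and their part in those values was not tested.

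T cell markers were higher in both p53-/- libraries. They summed to 9.28 and 16.5 CPM in WT and to 81.1 and 155 CPM in p53-/- SI, with 10 tested, 0 called, 10 higher at an unadjusted p under 0.05 and a median log2 fold change of 3.38 (2.98 without library 10). Cd8b1 was at 0 counts in WT and at 44 and 90 counts in p53-/- SI, and Cd5 (log2 fold change 4.65) and Trbc2 (3.83) were next. Lck (3.63) and Cd8a (2.99) were the most abundant. Igha, Jchain and Mzb1 were thus higher in the same 2 libraries as T cell and B cell markers, whose part in the result was not tested.

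Myeloid markers (8 tested, 0 called, 4 higher at an unadjusted p under 0.05) reached a median log2 fold change of 1.37 (1.06 without library 10) and summed to 57.4 and 134 CPM in WT and to 186 and 563 CPM in p53-/- SI. Lyz2 (2.99), Itgam (2.48) and Itgax (1.96) were furthest from 0, and Csf1r (1.21) was among the most abundant. Lyz2 was at 12.4 and 46.1 CPM in WT and at 53.2 and 411 CPM in p53-/- SI, so library 9 was close to WT library 8 and library 10 set both its fold change and most of the summed level of that library. Goblet and Paneth secretory markers (14 tested, 0 called) had a median of 0.098. At an unadjusted p under 0.05, 1 was higher and 1 lower, beside 10% and 7.92% of all tested genes. Among these markers were Mmp7 (1.01), Zg16 (-0.96), Itln1 (0.63), Lyz1 (0.57) and Fcgbp (-0.22). Red blood cell markers, a sign of blood in the tissue, summed to at most 5.97 CPM in any library, and the 2 that were tested, Hba-a1 (2.46) and Hbb-bs (1.71), were not called.

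**Figure D5:**
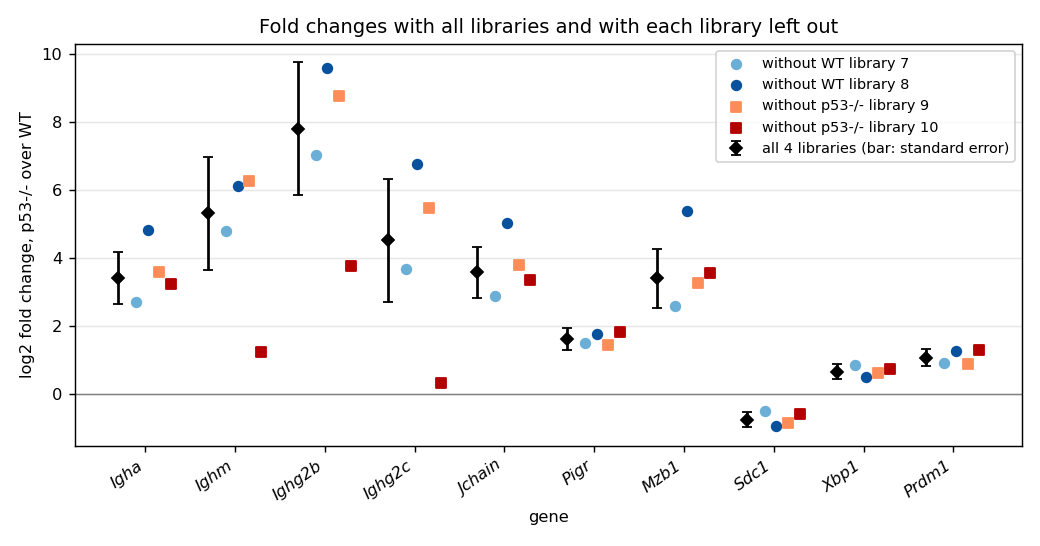
Log2 fold change of each gene with all 4 libraries (diamonds, bars are standard errors) and after removal of each library (circles for a WT library left out, squares for a p53-/- library). Without library 10, Ighm is at 1.22 and Ighg2c at 0.33, whereas Igha is at 3.25, Jchain at 3.36 and Pigr at 1.81.

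With library 10 left out, the median log2 fold change of the 10 genes was 1.55. Igha (3.25), Jchain (3.36), Mzb1 (3.57), Pigr (1.81) and Prdm1 (1.29) kept values near those with all libraries, whereas Ighm (1.22), Ighg2b (3.76) and Ighg2c (0.33) were lower by several log2 units. With library 9 left out, the log2 fold change was 3.59 for Igha, 3.79 for Jchain and 1.45 for Pigr. Sdc1 remained below 0 and the other 9 genes above 0 whichever library was left out.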

How the data were processed

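Poly-A RNA of whole SI was sequenced from 2 WT and 2 p53-/- mice, collected 1 day after TBI with 12 Gy. The deposited values are the authors' raw read counts for each gene, not normalized, with 15005479 to 22173164 counts per library. The submitters' processing notes name fastp, HISAT2 2.0.5, featureCounts 1.5.0-p3 and DESeq2 1.20.0. The genome build, the annotation and the strand setting of the counting are not given in the sources used here. Reads of overlapping or near-identical genes could therefore have been split. The study calls its data points biological replicates, and p-values measure the spread between these libraries.

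From these counts, CPM were computed with TMM factors, genes with low counts were removed by filterByExpr, and 16094 genes were tested, two-sided, with the quasi-likelihood test of edgeR 4.0.16 in R 4.3.3, with Benjamini-Hochberg adjustment and a threshold of 0.05. Standard errors are the log2 fold change divided by the square root of its F. Where neither library of a genotype exceeded 3 counts, the counts themselves are printed, or a bound computed with 3 counts per library. Shares have exact 95% Clopper-Pearson intervals. DESeq2 1.42.0, edgeR's likelihood ratio test, other scalings, other filters and leaving out each library were the alternatives. The edgeR and DESeq2 tests were first tested on simulated counts with known changes. Gene length and biotype came from GENCODE M21.

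The 10 genes and the 14 lists were chosen with earlier results of these data known. Named are the 10 genes, Trp53, in each list the genes past the threshold or else the 3 with the largest absolute log2 fold change and the 2 most abundant, and the 3 genes nearest to Igha, Jchain and Pigr over log2 CPM (prior count 2). Ccl28, Ccr9 and Ccr10 were named after their values were seen. The replicate numbers of the labels could not be matched to the columns. The values of 1 B cell marker that this rule names are not reported here.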

Additional observations from a re-analysis of the deposited data

How the results depend on the processing

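The direction of all 10 genes was the same under every alternative in which they were tested. The number called higher went from 0 to 9 with DESeq2, 8 without a filter on counts, 7 with edgeR's likelihood ratio test and 0 to 3 with 1 library left out, and the number called lower went from 0 to 1 with DESeq2 and with no filter. The median log2 fold change of the 10 genes, 3.41, was 1.68 with at least 10 counts in every library, a filter that removes Ighg2b, Ighg2c and Mzb1, and 1.55 to 4.94 with 1 library left out. The count of list genes past the threshold went from 2 to 82 with DESeq2, 104 without a filter, 72 with the likelihood ratio test, 1 with at least 10 counts, 0 with library size only, 0 with upper-quartile scaling and 0 to 44 with 1 library left out, and the cause was not tested. The number of all genes called moved with these settings as well. It was 48 higher and 31 lower of 16094 in the main fit, and 833 and 462 of 16094 with the likelihood ratio test. Without a filter it was 1433 and 761 of 27841, and with at least 10 counts 24 and 18 of 13863. DESeq2 called 796 genes higher and 647 lower. With each library left out 1 genotype has 1 library, which is assumed to vary like the others. The mean Igha share in WT was 98.8% by counts and 98.3% per kilobase. The log2 ratio of p53-/- over WT was -0.175 for Igha per Jchain and -0.275 for Igha per Mzb1. No paired analysis was possible because the column names carry no replicate numbers of the labels. With 2 libraries a genotype, a p that misses the threshold does not show that levels were alike.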

Other observations

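The variable segments that join these heavy and light chains were read as well, and differed among libraries of the same genotype. Of 183 Ighv genes listed, 20 and 46 had at least 10 counts in the WT libraries, from 645 and 2837 counts in all, and 64 and 72 in the p53-/- libraries, from 20810 and 21712 counts. These numbers are not comparable across such depths. Ighv3-1 took 16.6% of the Ighv counts in WT library 7 and 0.176% in WT library 8, and 9.87% and 3.27% in p53-/- libraries 9 and 10. Ighv1-26 took 1.55% and 8.14% in WT and 13.5% and 16.4% in p53-/- SI, where it led in both libraries. Reads of variable genes of a family can be split by the counting, and these shares were chosen after their values were seen.

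Among the kappa genes Igkv4-59 led in both WT libraries, with 16.8% and 7.90% of the Igkv counts, and took 0.704% and 0.788% in p53-/- SI. Igkv6-23 led in both p53-/- libraries, with 17.5% and 11.4%, and took 0.613% and 2.69% in WT. Iglv1 took 80.4% and 96.7% of the Iglv counts in WT and 99.8% and 98.0% in p53-/- SI. No test was made of these shares.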
